A study of Mus musculus with 8 samples.

Results

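Lcn5, Lcn8, Lcn9 and Lcn10 are 4 mouse genes for lipocalins that the epididymis secretes. They were taken by gene symbol from the 19532 genes named on an Agilent 2-colour whole mouse genome array, which gave 5 of its 41174 probes (2 of them for Lcn9). Lipocalins are small secreted proteins folded as a cup that carries a lipophilic molecule. In the mouse, the epididymal members form a cluster of neighbouring genes and are released by principal cells into the duct in which sperm mature. Lcn5 encodes the epididymal retinoic acid-binding protein, known from the middle and distal caput, and Lcn8 encodes a protein known from the initial segment, the stretch of duct nearest the testis.

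Total RNA was measured in 8 samples, 2 from each of 4 groups of CFT Swiss albino mice that were 5 weeks old. Over 8 days the mice received intraperitoneal saline (the controls), obestatin, its N-terminal peptide, or Nt8U, an analog of that fragment. Obestatin is a peptide cut from the precursor of ghrelin. The dose is 80 ng/kg with 6 mice per group in the design text, but 80 nmol/kg with 3 mice per group in the growth protocol, and this conflict was not settled here. No label ties a sample to a mouse or a pool. The p-values therefore reflect sample-to-sample spread alone, and this spread may be technical. Both samples of a group shared 1 array, with replicate 1 in Cy3 and replicate 2 in Cy5, so that array and group cannot be told apart.

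The tissue is a fat pad in the source name and adipose tissue in the extraction protocol, while titles and the tissue field say only epididymal. Markers of several tissues were present in amounts that differed between samples, including samples of 1 group. The median level of 11 adipocyte genes ran from 9.00 in N-terminal peptide replicate 2 to 15.38 in Nt8U replicate 1 (normalized log2 signal). That of 18 testis germ cell genes was 13.79 to 15.07 in the Cy5 samples of saline, the N-terminal peptide and Nt8U, and 8.64 to 11.28 in the other samples. Across all kept probes the correlation within a group was 0.970 for obestatin and 0.619 to 0.788 for the other groups.

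The 250 bases before each gene start are shown because 3 of these neighbouring genes shared 1 pattern over the samples and Lcn5 had another. They are RefSeq sequences of build GRCm38.p6, plus strand, from chr2:25652868-25653117 (Lcn8), chr2:25657702-25657951 (Lcn5), chr2:25682476-25682725 (Lcn10) and chr2:25822903-25823152 (Lcn9). Capitals mark matches on either strand. The motifs searched were the core promoter box TATAAA, the androgen receptor half-site TGTTCT, the core bound by forkhead factors, TGTTTA, and the ETS factor core GGAAGT.
Lcn8: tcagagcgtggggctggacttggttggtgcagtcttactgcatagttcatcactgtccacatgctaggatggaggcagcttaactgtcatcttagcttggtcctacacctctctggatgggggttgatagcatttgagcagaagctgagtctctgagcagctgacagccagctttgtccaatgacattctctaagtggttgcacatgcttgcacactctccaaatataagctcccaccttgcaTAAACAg
Lcn5: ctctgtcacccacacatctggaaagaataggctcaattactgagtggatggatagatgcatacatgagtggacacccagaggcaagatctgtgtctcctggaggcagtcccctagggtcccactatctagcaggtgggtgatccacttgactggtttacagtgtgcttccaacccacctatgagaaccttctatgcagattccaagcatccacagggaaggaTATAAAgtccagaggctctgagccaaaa
Lcn10: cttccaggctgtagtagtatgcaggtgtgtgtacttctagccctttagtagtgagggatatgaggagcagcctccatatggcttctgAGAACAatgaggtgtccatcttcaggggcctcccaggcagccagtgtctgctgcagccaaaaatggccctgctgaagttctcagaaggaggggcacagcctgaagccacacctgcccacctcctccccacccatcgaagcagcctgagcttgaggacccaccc
Lcn9: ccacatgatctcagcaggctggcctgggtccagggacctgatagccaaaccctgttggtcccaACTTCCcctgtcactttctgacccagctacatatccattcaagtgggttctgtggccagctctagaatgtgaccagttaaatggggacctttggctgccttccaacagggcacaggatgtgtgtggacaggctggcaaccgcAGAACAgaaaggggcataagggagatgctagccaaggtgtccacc
The exact letters TATAAA stood in the Lcn5 window only, 28 bases before the start. Of 32851 promoters, 12.4% held them on either strand, anywhere in a window of this length. Variants of this box were not searched, and the Lcn8 window holds tataag near its end, so the box is not shown to set Lcn5 apart. Lcn9 and Lcn10 held the androgen receptor half-site as AGAACA on the minus-strand reading, as did 16.1% of all promoters. Lcn8 held the forkhead core, read as TAAACA, which 12.0% of all promoters held. Lcn9 also held the ETS core, read as ACTTCC, which 19.7% held. No match overlapped another. Such matches are a description of letters and not of binding sites.

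Lcn8, Lcn9 and Lcn10 were bright in the saline samples and dim, at 163 intensity units or less, in the 6 samples from peptide-treated mice. Of the 5 probes, Lcn5 included, 4 were well above background in both obestatin samples, all but 1 probe of Lcn9. With the N-terminal peptide only 1 was so, that of Lcn5, and with Nt8U only 1, a probe of Lcn9. Lcn5 was bright in saline, obestatin and N-terminal peptide samples, and low in Nt8U only. Saline replicate 1 was far above saline replicate 2 for every one of the 5 probes. None of the differences between groups passed the test after adjustment over all probes, with limma. In such bulk RNA, fewer cells of a type and less RNA per cell cannot be told apart.

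Lcn5 (probe A_51_P191875) gave median spot signals of 65527 and 6869 intensity units in saline replicates 1 and 2, 24870 and 65527 with obestatin, 65527 and 10851 with the N-terminal peptide, and 37 and 828 with Nt8U. The signal of 65527 is the scanner's ceiling, so 3 samples were saturated, in 3 different groups, and the spot of Nt8U replicate 1 was not well above background. Saline, obestatin and N-terminal peptide samples overlapped, and both Nt8U samples lay below all of them. After background correction and normalization the log2 signals were 16.46 and 12.71, 15.09 and 15.15, 16.92 and 12.86, and 6.41 and 8.98 in the same order. The same ceiling thus became 16.46, 15.15 and 16.92, so these 3 samples have no order among themselves. Within groups, replicate 1, at the ceiling, exceeded replicate 2 by at least 13.4-fold in saline and at least 16.6-fold with the N-terminal peptide. In the other groups the fold is not measured, since obestatin replicate 2 was saturated and Nt8U replicate 1 was not well above background.

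Lcn8 (A_51_P379873) stood at the ceiling of 65527 in saline replicate 1 and at 2085.5 in replicate 2. Its signals were 114 and 71.5 with obestatin, 64 and 35 with the N-terminal peptide, and 33 and 49 with Nt8U, the last 3 of these not well above background. Saline lay above every other sample, and the saline samples were themselves at least 44.3-fold apart after normalization, at 16.45 (saturated) and 10.98 on the log2 scale.

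Lcn9, for which 2 probes were measured, was likewise highest in saline. Probe A_51_P339613 read 65527 (saturated) and 2606 in saline, 163 and 78 with obestatin, 48.5 and 86 with the N-terminal peptide, and 63 and 118 with Nt8U. Probe A_52_P618932 read 65527 (saturated) and 1470.5 in saline, 150.5 and 35.5 with obestatin, 32 and 40 with the N-terminal peptide, and 39 and 72 with Nt8U. Both probes put the saline samples above all others. Of the peptide samples, the first probe was not well above background in N-terminal peptide replicate 1, and the second was well above it only in obestatin replicate 1 and Nt8U replicate 2. The second probe passed the filter on dim probes through saline alone, where it was high, so its differences from saline are given as a description and it is left out of the counts against saline.

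Lcn10 (A_52_P343661) was below the ceiling in every sample, at 20876 and 981 in saline. It read 63.5 and 54.5 with obestatin, 42.5 and 59.5 with the N-terminal peptide, and 51 and 66 with Nt8U, and the spots of N-terminal peptide and Nt8U replicates 1 were not well above background. Its saline values did not overlap any peptide value. The saline samples differed 29.6-fold for Lcn10, which was not saturated. For Lcn9, saturated in replicate 1, they differed at least 35.5-fold and at least 62.6-fold.

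**Figure D1:**
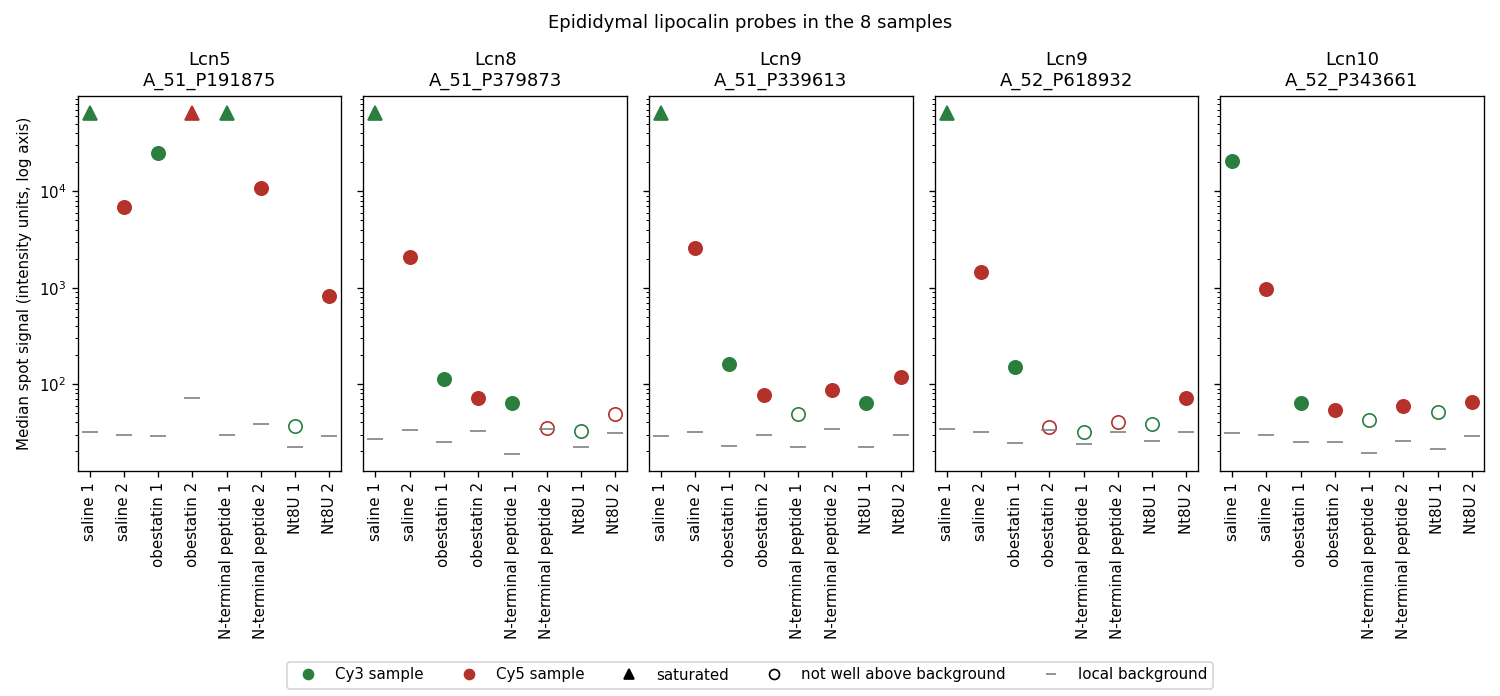
Median spot signal (intensity units, log axis) of the 5 lipocalin probes in each of the 8 samples, with the local background as a dash. Green is Cy3 and red Cy5, triangles are saturated at 65527 and open circles are not well above background. Lcn8, Lcn9 and Lcn10 reach 163 at most in the peptide samples, whereas Lcn5 falls to 37 and 828 with Nt8U alone.

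By normalized signal, all 5 saline ratios exceeded 4-fold in the direction of replicate 1, as did 5.75% of the 28157 probes kept. With the N-terminal peptide 1 of 5 did so (Lcn5), against 9.05% of all probes. With Nt8U 1 of 5 was over 4-fold higher in replicate 2 (again Lcn5), against 12.0% of all probes. With obestatin no lipocalin probe was over 4-fold apart as recorded, and of all probes 0.0888% were so toward replicate 1 and 0.0355% toward replicate 2. For Lcn5, saturated in obestatin replicate 2, and the second Lcn9 probe, not well above background there, the fold was not measured. In the authors' deposited table of log2 values, made from the same spots, the saline samples were 38.6-fold apart for Lcn10. For the probes saturated in replicate 1, that table put them at least 17.3-fold apart for Lcn5, 56.9-fold for Lcn8, and 45.6-fold and 81.0-fold for Lcn9. The authors' gene lists leave out genes that differed 2-fold between saline samples, per the deposited readme, and the lists for the N-terminal peptide, with 37 higher and 72 lower probes, hold 0 of the 5 probes.

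The range over the 8 samples was among the widest on the array for each gene. Lcn8 spanned 10.64 on the log2 scale and 1 probe spanned more, Lcn5 spanned 10.50 and 3 did, and the Lcn9 probes spanned 10.07 and 10.58. Lcn10 spanned 8.47, and 47 of 28157 probes (0.167%) spanned more. Saturation means that the ranges of Lcn5, Lcn8 and Lcn9 are understated and that their ranks are only those of the recorded values.

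Obestatin against saline asks what the full peptide did. Lcn8, Lcn9 and Lcn10 had lower group means with obestatin, and Lcn5 did not. For Lcn8 the means were 7.02 ± 0.68 with obestatin and 13.72 ± 3.87 in saline (log2, SD, n = 2 each), a difference of -6.70 (SE 1.45, limma adjusted p = 0.515). Lcn9 differed by -6.54 on its first probe (adjusted p = 0.515) and by -6.62 on its second, and Lcn10 by -5.74 (adjusted p = 0.519). All obestatin values lay below all saline values for 3 of the 4 probes counted, as for 11.8% of all probes. The saline means of Lcn8 and Lcn9 include a saturated spot, so their differences from saline are understated here and with the other peptides. Lcn5 differed by 0.54 with a 95% interval of -4.24 to 5.32 (adjusted p = 0.88). In each of these groups 1 Lcn5 sample was saturated, in different dyes, so neither the size nor the direction of this difference is settled.

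The N-terminal peptide against saline gave nearly the same picture for these genes. Lcn8 differed by -7.49 (SE 1.45), Lcn9 by -7.38 and -7.52, and Lcn10 by -5.96 (SE 1.38), each with a limma adjusted p of 1. The group means of Lcn10 were 6.33 ± 0.08 and 12.30 ± 3.46 (log2, SD, n = 2 each). Groups did not overlap for 3 of the 4 probes counted, lower with the peptide, against 5.18% of all probes. The second Lcn9 probe was dim in both peptide samples and kept through saline. Its saline mean lay 166-fold above a floor set by the lowest signal well above background. That ratio rests largely on saline replicate 1, and the Cy5 samples of this probe differed by -4.45. Lcn5 had means of 14.89 ± 2.87 and 14.58 ± 2.65, a difference of 0.31 with an interval of -4.47 to 5.08, and its Cy3 sample was saturated in both groups.

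With Nt8U all 5 probes, Lcn5 included, had lower means than in saline. Lcn5 had a mean of 7.70 ± 1.82 with Nt8U, a difference of -6.88 (SE 1.82, limma adjusted p = 0.478). It was -4.31 without Nt8U replicate 1, -5.25 without saline replicate 1, and -3.72 with saturated spots left out, which leaves saline replicate 2 as the lone saline sample. Lcn8 was not well above background in either Nt8U sample and had an adjusted p of 0.447 with limma. Its saline mean lay 195-fold above a floor set by the lowest signal well above background. That ratio rests largely on saline replicate 1, and the Cy5 samples of Lcn8 differed by -4.82. Lcn9 differed by -7.15 on its first probe and Lcn10 by -5.94, each with an adjusted p of 0.447, and Lcn9 by -7.24 on its second probe. Groups did not overlap for 4 of the 4 probes counted, against 10.4% of all probes. The 3 comparisons share the saline samples, so they are not independent of each other.

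Saline replicate 1 carried much of the size of these differences. Without it, Lcn8 differed from saline by -4.22 with obestatin, -5.02 with the N-terminal peptide and -5.20 with Nt8U. Lcn10 then differed by -3.35, -3.57 and -3.55. The direction was the same for both genes and for Lcn9, whose differences without that sample lay between -5.03 and -3.87.

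**Figure D2:**
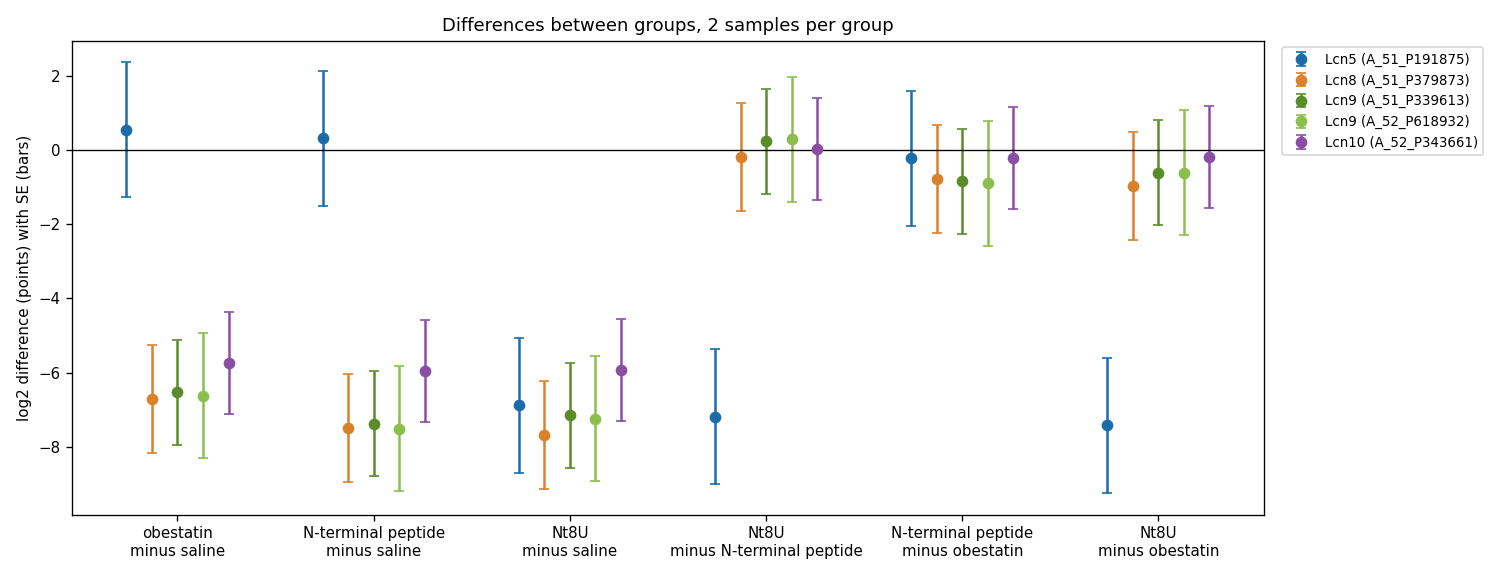
Differences between group means (normalized log2 signal, points) with the standard error of the limma fit (bars) for the 5 lipocalin probes in 6 comparisons of 2 samples against 2. Lcn8, Lcn9 and Lcn10 lie between -7.68 and -5.74 in the comparisons with saline and within 1 of zero between peptides, whereas Lcn5 lies between -7.43 and -6.88 in each comparison that holds Nt8U.

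No probe of the array had an adjusted p under 0.05 in any of the 6 comparisons with limma. At an unadjusted p under 0.05, obestatin differed from saline in 2369 probes, the N-terminal peptide in 237 and Nt8U in 2247. The peptide pairs differed in 2980 (Nt8U and the N-terminal peptide), 2788 (the N-terminal peptide and obestatin) and 415 probes (Nt8U and obestatin). Of the 4 lipocalin probes counted, 3 with obestatin, 3 with the N-terminal peptide and 4 with Nt8U were below saline at that level, against 1.48%, 0.685% and 1.44% of all probes. An exact permutation test of 2 samples against 2 cannot give a two-sided p below 0.333. Without obestatin replicate 1 the comparison of obestatin with saline called 3807 probes, and no lipocalin probe was among them, since their lowest adjusted p there was 0.094.

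The 3 peptides were set against each other in 3 pairs, at the dose that each source states for all of them. Lcn5 separated Nt8U from both others. Nt8U lay below the N-terminal peptide, of which it is an analog, by -7.19 (SE 1.82, 95% interval -11.97 to -2.41, limma adjusted p = 0.28), and no sample overlapped, as for 11.3% of all probes in that direction. The Cy5 samples, neither saturated nor dim, differed by -3.88. The Cy3 samples were at the ceiling with the N-terminal peptide and not well above background with Nt8U. Against obestatin Nt8U differed by -7.43 (95% interval -12.20 to -2.65, adjusted p = 0.988), with 2 of 5 probes (Lcn5 and Lcn8) lower without overlap, against 23.0% of all probes. Neither difference passed the threshold, and without Nt8U replicate 1 they were -4.61 and -4.85.

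Between the N-terminal peptide and obestatin, Lcn5 differed by -0.23 with a 95% interval of -5.01 to 4.54. The intervals are wide enough to hold a large difference in either direction, so the test does not show that the peptides act alike. Lcn8 differed by -0.79 (interval -4.61 to 3.03) and Lcn10 by -0.22 (-3.84 to 3.39). Groups did not overlap for 2 of 5 probes, lower with the N-terminal peptide (Lcn9 and Lcn10), against 24.8% of all probes. Between Nt8U and the N-terminal peptide, Lcn8, Lcn9 and Lcn10 differed by -0.19 to 0.28, at signals of 118 or less. Both Lcn9 probes were higher with Nt8U without overlap, as were 15.3% of all probes.

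Lcn8, Lcn9 and Lcn10 varied together. Over the 8 samples the pairwise Pearson correlations of their 4 probes were 0.990 to 0.998, and each probe had a correlation of 0.349 to 0.417 with Lcn5. The points share arrays in pairs, and the high values rest on the saline samples. Over the 6 peptide samples, where signals were low, the correlations among these probes were 0.620 to 0.969.

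Genes most like Lcn5 among 15435 were Spag11a (r = 0.988 over 8 samples), an epididymal gene of the beta-defensin kind whose near copy Spag11b was not measured here, Eppin (0.974), a protease inhibitor on the sperm surface, Rhcg (0.973), an ammonia transporter, Skap1 (0.971) and Tfcp2 (0.970). Spag11a stood at 16.44 and 11.40 in saline and 14.56 and 15.11 with obestatin (log2). It read 16.89 and 11.71 with the N-terminal peptide, and 6.48 and 7.70 with Nt8U. Like Lcn5, Spag11a was saturated in saline replicate 1, obestatin replicate 2 and N-terminal peptide replicate 1. Its correlation with Lcn5 thus rests in part on values at the ceiling. Tfcp2 ranged over only 0.62. Those most like Lcn8, besides Lcn9 and Lcn10, were Rnase10 (r = 0.998), a secreted ribonuclease family protein of the epididymis, Ly6g5b and Cst11 (both 0.987), the latter a cystatin. Lcn9 had the same 5 genes with Lcn8 in place of itself. Lcn10 had Teddm1a (0.995), Lcn9, Lcn8, Adam28 (0.992) and Rnase10 (0.991). Rnase10 stood at 16.36 and 10.89 in saline and between 5.92 and 7.56 in the peptide samples.

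The pair of saline replicate 1 and N-terminal peptide replicate 1 set the lipocalins apart from most of the array. Both are Cy3 samples with a correlation of 0.958 over all probes, and 93.5% of probes were within 2-fold between them. Lcn5 stood at 16.46 and 16.92, saturated in both. Lcn8 stood at 16.45 (saturated) and 6.64, at least 9.81 lower in the peptide sample. Lcn10 stood at 14.74 and 6.27 and the first Lcn9 probe at 16.44 (saturated) and 6.37, neither of them well above background in the peptide sample. Of all probes, 0.824% were over 4-fold lower. All 5 clear, basal and principal cell genes measured, such as Krt5 and Aqp9, were within 2-fold between these samples, as were 17 of 18 germ cell genes and all 11 adipocyte genes.

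Other secreted epididymis genes divided in the same way, though 0 of 16 passed the adjusted test in any comparison. Of these, 13 were over 4-fold higher in saline replicate 1 than in replicate 2. From saline replicate 1 to N-terminal peptide replicate 1, 8 of 16 were over 4-fold lower, 1 was over 4-fold higher and 5 were within 2-fold. Of the 16 genes, 6 were saturated in saline replicate 1 and 2 in N-terminal peptide replicate 1. Adam28, a metalloprotease of the ADAM family, went from 16.26 to 6.33 and Cst11 from 16.44 (saturated) to 6.51, close to Lcn8. Eppin, not saturated, went from 14.14 to 14.40. Adam7, another ADAM protein, at 16.37 (saturated) and 16.14, and Cuzd1, at 16.08 and 16.70 (saturated), were high in both samples, as Lcn5 was. Gpx5, a glutathione peroxidase secreted by the caput, lay between, at 16.45 (saturated) and 13.35. In Nt8U replicate 1, 14 of 16 were over 4-fold below saline replicate 1. This pair had a correlation of only 0.863 over all probes. The share of all probes over 4-fold lower was not counted for it, so the 14 of 16 cannot be read as particular to these genes. The median difference of the 16 genes from saline was -1.91 with obestatin, -1.95 with the N-terminal peptide and -5.02 with Nt8U, against 0.05, 0.02 and -0.07 over all probes. The 16 include Teddm1a, well above background in 2 samples only, which passed the filter on dim probes through saline, where it was high. The counts and medians against saline are therefore a description.

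**Figure D3:**
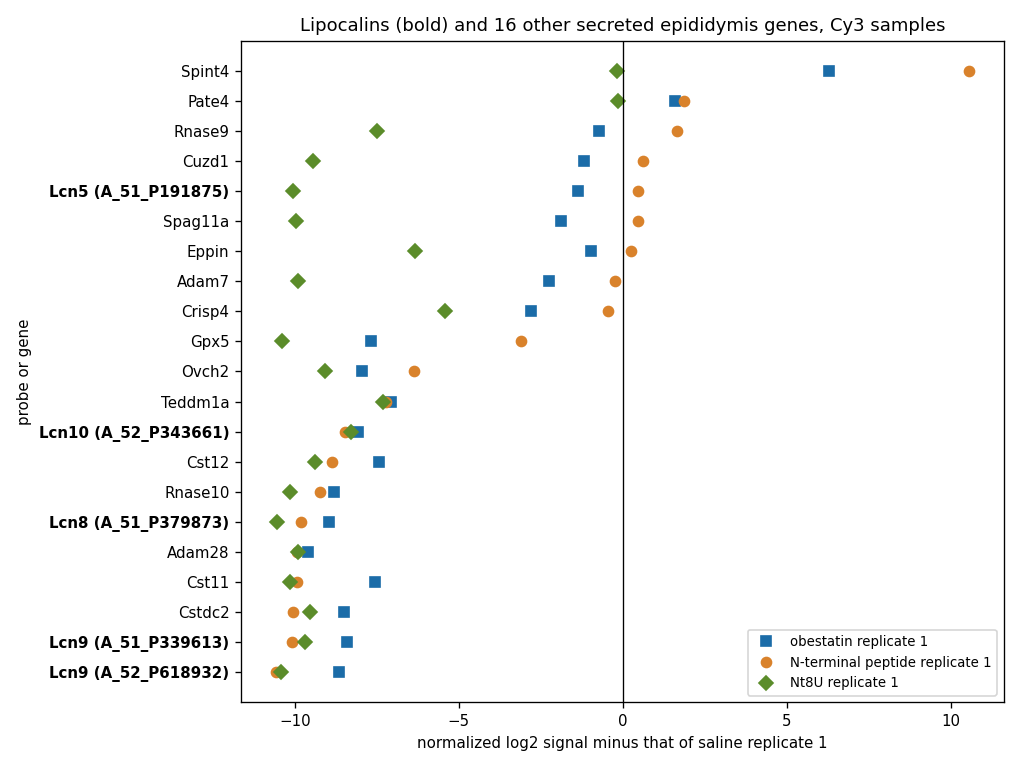
Normalized log2 signal in the Cy3 sample (replicate 1) of each peptide group minus that of saline replicate 1, for the lipocalin probes (bold) and 16 other secreted epididymis genes. With the N-terminal peptide, Lcn5 lies near zero with Spag11a, Cuzd1, Eppin and Adam7, of which Lcn5 and Spag11a are saturated in both samples, Cuzd1 and Adam7 in 1 and Eppin in neither, and Lcn8, Lcn9 and Lcn10 lie below -8 with Adam28, Cst11, Cstdc2, Rnase10 and Cst12.

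Regulators of these genes were measured in part. Etv4 and Etv5, ETS factors of the mouse initial segment, were high in saline replicate 1 only: Etv4 stood at 10.47 there and at 6.47 to 6.96 in the other 7 samples, and Etv5 at 9.94 and at 6.46 to 7.25. Ros1, a receptor tyrosine kinase needed for the initial segment, read 11.46 and 6.92 in saline, 8.56 and 9.87 with obestatin, 10.80 and 7.01 with the N-terminal peptide, and 5.99 and 6.62 with Nt8U. Ros1 was thus high with the Cy3 sample of the N-terminal peptide as Lcn5 was, and Etv4 and Etv5 were not. Esr1, the estrogen receptor, ranged over 2.89. None of the 4 regulators kept passed the adjusted test, nor an unadjusted p under 0.05, in the comparisons with saline. The androgen receptor was not analysed here.

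Genes that handle retinoids, the ligands of the Lcn5 protein, were not among those named above as most like Lcn5. Of 13 measured, 0 passed the limma test after adjustment, and 3 with obestatin and 4 with Nt8U were higher than saline at an unadjusted p under 0.05, against 6.93% and 6.54% of all probes. The widest ranges were those of Aldh1a2 (4.37), which makes retinoic acid, Rxrg (4.01), a retinoid receptor, Cyp26b1 (3.93), which degrades retinoic acid, and Rdh10 (3.58). Aldh1a2 was highest in the Cy5 samples of saline (12.79), the N-terminal peptide (13.22) and Nt8U (12.15), which were also the germ cell-rich samples, and Lcn5 was below its Cy3 partner in the first 2 of them. In the Cy3 samples Aldh1a1, another of these genes, was high in saline (15.85) and the N-terminal peptide (16.25), as Lcn5 was. It stood at 14.59 with obestatin and was lowest with Nt8U (13.12). In the Cy5 samples Aldh1a1 did not follow Lcn5, as Nt8U (14.93) lay above saline (14.45) and the N-terminal peptide (14.18). Its Cy5 obestatin sample (15.11) was saturated.

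Among the other lipocalins, 11 of 16 on the array were kept and 0 passed the adjusted limma test. At an unadjusted p under 0.05, 3 were above saline and 1 below with obestatin, where 6.93% of all probes were above and 1.48% below. With Nt8U 3 were above and 2 below, against 6.54% and 1.44%, and with the N-terminal peptide 0 passed in either direction, against 0.156% and 0.685%. Lcn12, an epididymal member, had the widest range (8.82), at 15.32 and 10.77 in saline, 11.11 and 11.84 with obestatin, 13.00 and 8.32 in the N-terminal samples, and 6.50 and 7.70 with Nt8U. It was thus highest in saline replicate 1, and both Nt8U samples were below all others, as for Lcn5. Lcn2, an iron-sequestering defence protein, stood at 14.05 and 10.92 in saline and at 7.15 to 9.54 in the peptide samples, without overlap. Ptgds, the prostaglandin D2 synthase, was at 14.04 in the Cy3 sample of saline, 14.40 in that of the N-terminal peptide and 7.79 in that of Nt8U, and at 12.23, 11.78 and 11.35 in their Cy5 samples. Orm2, an acute phase protein of the blood, was instead highest in Nt8U replicate 1 (12.92). Lcn6 ranged over 0.80, between 6.05 and 6.84, and Lcn3 and Lcn4 were not well above background in any sample. Obp2a, also called Lcn13, was well above background in saline replicate 1 alone, at 7.97, and read 5.83 to 5.98 in the other samples.

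On chromosome 2, 30 genes lie from Lcn12 to Lcn9 in RefSeq order, and 17 of the 19 on the array were kept. Lcn8 and Lcn5 are next to each other and had different patterns, and Lcn6, between Lcn5 and Lcn10, stayed near background. Of the 13 genes that are not lipocalins described here, 6 ranged over more than 4-fold, a share that was not counted over all probes. Of these, 2 (Lcn12 and Bmyc) were over 4-fold lower in N-terminal peptide replicate 1 than in saline replicate 1, against 0.824% of all probes. Bmyc, a Myc family gene known from the epididymis, stood at 13.25 in saline replicate 1 and at 7.56 to 9.84 in the other samples. Ccdc183 followed the germ cell genes, at 14.12, 13.73 and 12.98 in the Cy5 samples of saline, the N-terminal peptide and Nt8U. Edf1, Traf2 and Mamdc4 ranged over less than 1 on the log2 scale.

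**Figure D4:**
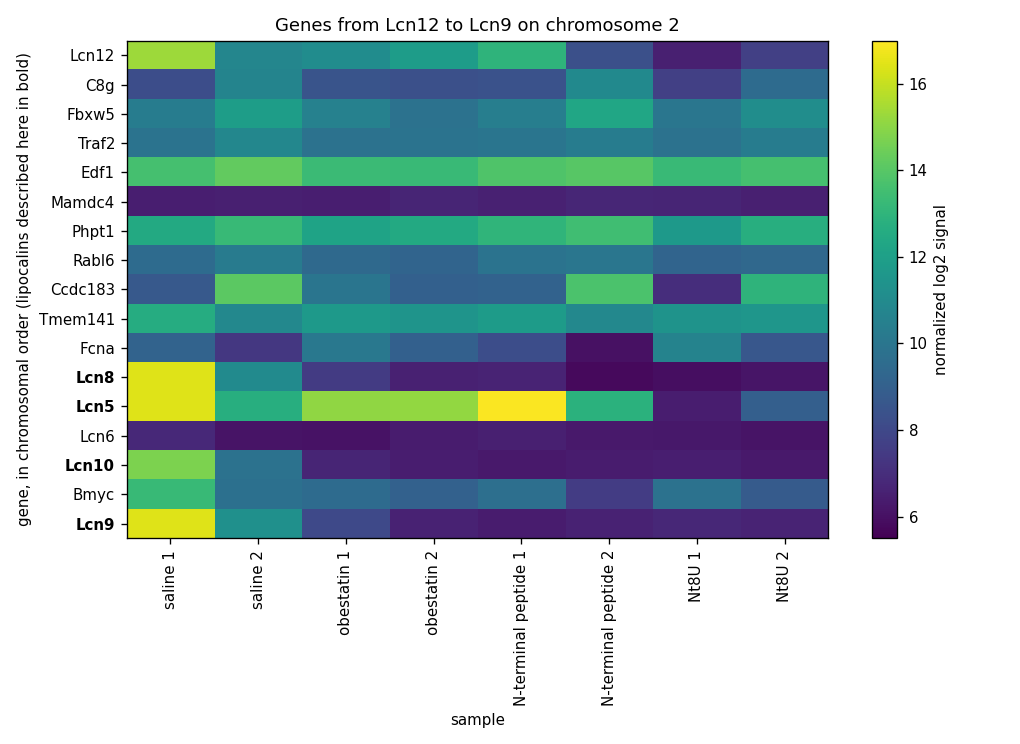
Normalized log2 signal (colour) of the 17 kept genes from Lcn12 to Lcn9 in chromosomal order, in the 8 samples. The lipocalins described here are in bold. Lcn8, Lcn10 and Lcn9 are bright in saline only, and Lcn5, next to Lcn8, also in the obestatin and N-terminal peptide samples.

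Other tissue markers moved with the lipocalins in some samples and not in others, and their part in the differences was not tested. In Nt8U replicate 1, where Lcn5 was not well above background, the 5 clear, basal and principal cell genes had their lowest median, against 8.26 to 11.13 in the other samples, and the adipocyte genes their highest. Krt5, Trp63 and Krt14, genes of basal cells, stood there at 7.27, 6.60 and 7.33, and Aqp9 of principal cells ranged over 4.12. The 16 secreted epididymis genes had a median of 16.17 in saline replicate 1 and 6.42 in Nt8U replicate 1. The germ cell median was 9.02 in saline replicate 1 and 15.07 in replicate 2. The medians of 8 macrophage genes ran from 8.11 to 11.83 and those of 6 smooth muscle genes from 10.58 to 15.18. Those of 4 Sertoli cell genes ran from 6.95 to 11.18, those of 4 Leydig cell genes from 6.42 to 9.88 and those of 2 seminal vesicle genes from 6.11 to 8.45. The Sertoli cell genes did not move together. Trf was highest in Nt8U replicate 1 (14.64), Rhox5 in N-terminal peptide replicate 2 (12.77) and Sox9 in saline replicate 1 (11.29). The genes of widest range were Ddx4, Pgk2, Smcp and Ldhc for germ cells (6.91 to 8.05), Lpl, Retn, Cidec and Lep for adipocytes (7.25 to 7.55), and Cd163, C1qa, Stab1 and C1qc for macrophages (3.97 to 5.21). For smooth muscle they were Myh11, Des, Cnn1 and Tagln (4.58 to 5.57), for Sertoli cells Trf, Rhox5, Cldn11 and Sox9 (4.23 to 6.28), and for Leydig cells Hsd17b3, Cyp17a1, Cyp11a1 and Star (3.00 to 3.93). Saturated were 8 of 18 germ cell genes in N-terminal peptide replicate 2 and 5 of 11 adipocyte genes in Nt8U replicate 1. In Nt8U replicate 2, 3 of 6 smooth muscle genes were. Ranges of saturated genes, such as Smcp, Ldhc, Cidec and Lpl, may thus be understated. Svs5 ranged over 3.57 and Svs6 over 1.10. Svs5 stood at 9.78, 9.72 and 9.21 in the Cy5 samples of saline, the N-terminal peptide and Nt8U, and at 6.21 to 7.30 in the other samples. Of the seminal vesicle genes that were not kept, Svs4 was well above background in 3 samples, and Svs2 and Svs3a in none.

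**Figure D5:**
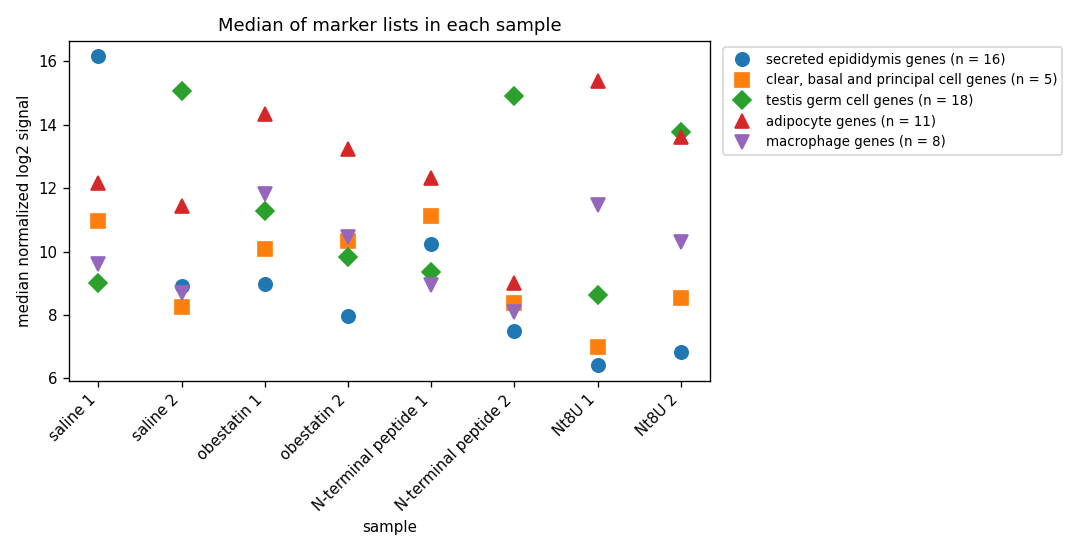
Median normalized log2 signal of 5 marker lists in each of the 8 samples, 1 symbol per list. Saline 1 has the highest median of secreted epididymis genes (16.17), Nt8U 1 the lowest (6.42), and the Cy5 samples of saline, the N-terminal peptide and Nt8U have germ cell medians of 13.79 or more.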

How the data were processed

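The deposited scanner intensities were made with Feature Extraction 10.5.1.1, per the file headers. The authors' log2 table and gene lists (log2 fold changes and p-values) were made with GeneSpring GX 10, per the deposited readme, which assigns channels to samples. In the authors' log2 table, columns with a Cy3 label tracked the red channel (r = 1) and the Cy5 columns the green one, so replicate numbers within a group would swap under those labels. Their column medians ran from -2.90 to -2.14. The readme was followed here.

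Median signals were corrected with normexp (offset 50) on median backgrounds and normalized by loess and Aquantile, and channels were treated as samples (limma 3.58.1, R 4.3.3). Median signals per sample were 71 to 224.75 intensity units, and median backgrounds were 22 to 31. Precision is limited by how few arrays there were. Spots at 65527 counted as saturated, since no Cy3 spot was marked although 10 to 37 per sample had that signal. Of 41174 probes, 87 had missing values after outlier marks, and 28157 were kept, which had to be marked well above background in each sample of 1 or more groups. The lipocalin probes passed, 1 of them through saline alone, where it was high. All 8 samples entered 1 linear model of group means plus dye (3 residual degrees of freedom), with Benjamini-Hochberg adjustment and a threshold of 0.05.

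The floor for a probe dim in a whole group is the lowest signal well above background there, or the probe's own signal where that is higher. The fold above it is a ratio of group means and not the smallest fold between samples. Scanner files gave accessions, not symbols, so probes were named through the platform annotation, with 32664 probes of 1 symbol, 45 of several and 8465 unlisted. The brightest probe stood for a gene. Named were, per list, the 4 genes of widest range, other lipocalins named Lcn, and the 5 most correlated with each lipocalin. Several others in the text (Adam7, Aldh1a1, Cuzd1, Cstdc2, Cst12, Rnase9, Rbp4, Bmyc, Ccdc183, Edf1, Traf2, Mamdc4, Svs2, Svs3a and Svs4) were chosen after their values were seen. The members and lists were chosen with earlier results of these data known. Alternatives covered background, normalization, filters, saturation, dye and each sample left out. Promoter windows were searched in Python 3.11.15.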

Additional observations from a re-analysis of the deposited data

How the results depend on the processing

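No lipocalin difference passed the adjusted threshold under any alternative run. The count of called probes was 0 in all 6 comparisons under the alternatives that kept every sample, and over the fits without 1 sample it ran from 0 to 3807 for obestatin against saline, 0 to 5178 for the N-terminal peptide against obestatin and 0 to 1832 for Nt8U against obestatin. The high counts came without obestatin replicate 1, where the remaining obestatin sample is assumed to vary like the other groups. Without the dye term, which is also the fit with no replicate block, 0 probes were called in each comparison. Of the lipocalin values under alternatives, 450 kept their direction and 24 changed sign, all of them among small differences. Between Nt8U and the N-terminal peptide, Lcn10 was -0.014 with quantile normalization. With saturated spots left out, Lcn5 was 4.95 for obestatin against saline and -4.80 for the N-terminal peptide against obestatin. Both values lie outside the Lcn5 ranges given next. Each of these groups then held a lone Lcn5 sample, and the samples compared were in different dyes. Leaving out 1 sample at a time gave these lowest and highest differences. Lcn5 ran from -1.10 to 2.18 for obestatin against saline, from -1.54 to 2.15 for the N-terminal peptide against saline and from -2.08 to 1.61 for the N-terminal peptide against obestatin. For Nt8U against the N-terminal peptide, Lcn8 ran from -1.52 to 1.15, Lcn9 from -0.99 to 1.46 and from -1.20 to 1.76, and Lcn10 from -0.92 to 0.97. For the N-terminal peptide against obestatin, Lcn9 ran from -2.07 to 0.38 and from -2.23 to 0.43, and Lcn10 from -1.17 to 0.72. For Nt8U against obestatin, Lcn8 ran from -2.32 to 0.36, Lcn9 from -1.62 to 0.39 and from -2.10 to 0.86, and Lcn10 from -0.94 to 0.54. The cause was not tested. The filter on probes well above background in all samples left no lipocalin probe. Saturation bounds Lcn5, Lcn8 and Lcn9 from above and background bounds them from below.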

Other observations

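Spint4, a gene of the Kunitz-type protease inhibitor family listed here with the secreted epididymis genes, was low in saline, where Lcn8 was bright, and high with obestatin and the N-terminal peptide, and both genes were low with Nt8U. Its log2 signals were 6.13 and 5.98 in saline, 12.40 and 15.25 with obestatin, 16.69 and 9.94 with the N-terminal peptide, and 5.96 and 5.98 with Nt8U. Saline and Nt8U samples were thus all below the samples of the other peptides. Rnase9, a ribonuclease family protein, read 13.97 and 8.31 in saline, 13.24 and 14.60 with obestatin, 15.63 and 9.95 with the N-terminal peptide, and 6.46 and 8.32 with Nt8U. It resembled Lcn5 in part, but its saline and Nt8U samples overlapped, which those of Lcn5 did not. Rbp4, the lipocalin that carries retinol in blood, was highest in Nt8U replicate 1 (16.24) and lowest in N-terminal peptide replicate 2 (9.75).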
